A study of Mus musculus with 7 samples.

Results

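Podocytes are the cells that cover the outside of the glomerular capillary, and their interlocking foot processes form the last layer of the kidney filter. The 9 podocyte genes of the foot process and the cell surface described here were chosen by symbol: Podxl, Synpo, Ptpro, Rhpn1, Plce1, Nes, Npr3, Cdkn1c and Dpp4. All 9 were among the 12958 symbols measured in each of 7 glomerular libraries. Each library came from 1 male BALB-C mouse aged 14 weeks. From week 8 on, for 6 weeks, food and drinking water held doxycycline. The 3 knockdown mice carried a transgene for an siRNA against Shroom3, a regulator of actomyosin at the apical side of epithelial cells. The 4 control mice were littermates that lacked the siRNA sequence but received the same doxycycline. The labels do not name the promoter of the transgene or the cells in which it acts, so the difference concerns whole glomeruli of knockdown animals.

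Foot processes are held in shape by actin bundles, and their free surface is kept apart from its neighbours by a negatively charged coat. Podocalyxin (Podxl) is the main sialoprotein of that coat and is tied to actin through ezrin, while synaptopodin (Synpo) and rhophilin (Rhpn1) act on the actin cytoskeleton. Loss of podocalyxin, of the phospholipase Plce1 or of the receptor phosphatase Ptpro is a known cause of altered foot processes or proteinuria. The other members mark the mature podocyte: the intermediate filament nestin (Nes), the natriuretic peptide clearance receptor (Npr3), the cell cycle inhibitor p57 (Cdkn1c) and the surface peptidase Dpp4.

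The unit throughout is the deposited log2 expression value. The tables hold no reads, so depth and counting error are unknown. Library medians lay between 9.15 and 9.16. Sample titles came in 2 styles, with 5 libraries titled G (2 knockdown, 3 control) and 2 titled CB6 (1 knockdown, 1 control); what the styles stand for is not given in the sources used here. Shroom3 itself ranged from 10.80 to 10.91 in knockdown and from 10.85 to 11.36 in control libraries, and the groups overlapped (limma, Benjamini-Hochberg adjusted p = 0.417). The level of the targeted transcript thus gave no check on the labels, and directions below refer to the libraries as labelled. The podocyte markers Nphs1 and Wt1 were present, at the 96.1 and 94.9 percentiles of all genes by mean value.

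Of the 9 genes, 6 had lower mean values in the knockdown libraries, by 0.29 to 0.64 on the log2 scale, and the other three had means within 0.19 of the controls. The lower 6 were Rhpn1, Ptpro, Plce1, Synpo, Npr3 and Nes, and the other three were Podxl, Cdkn1c and Dpp4. None of the 9 passed an adjusted p of 0.05 (limma, Benjamini-Hochberg over all genes), against 3.02% of all genes. At an unadjusted p of 0.05, 6 of the 9 were lower, where 8.67% of all genes were lower by that rule. These are the lower 6 named above, a group set by this same threshold. At an adjusted p of 0.1 Ptpro, Synpo, Plce1 and Rhpn1 passed, where 3.84% of all genes were lower. The 3 knockdown libraries lay below all 4 control libraries for Synpo, Ptpro and Plce1, a pattern found for 7.55% of all genes. The median difference over the 9 was -0.32, beside 0.02 over all genes. One library decided the call: without control replicate 2, Rhpn1, Ptpro, Plce1 and Synpo passed an adjusted p of 0.05, and with any other single library left out none did. Over all 12958 genes 480 passed without that library, and 391 in the fit of all libraries. In bulk glomerular RNA, fewer podocytes and less RNA per podocyte cannot be told apart.

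**Figure D1:**
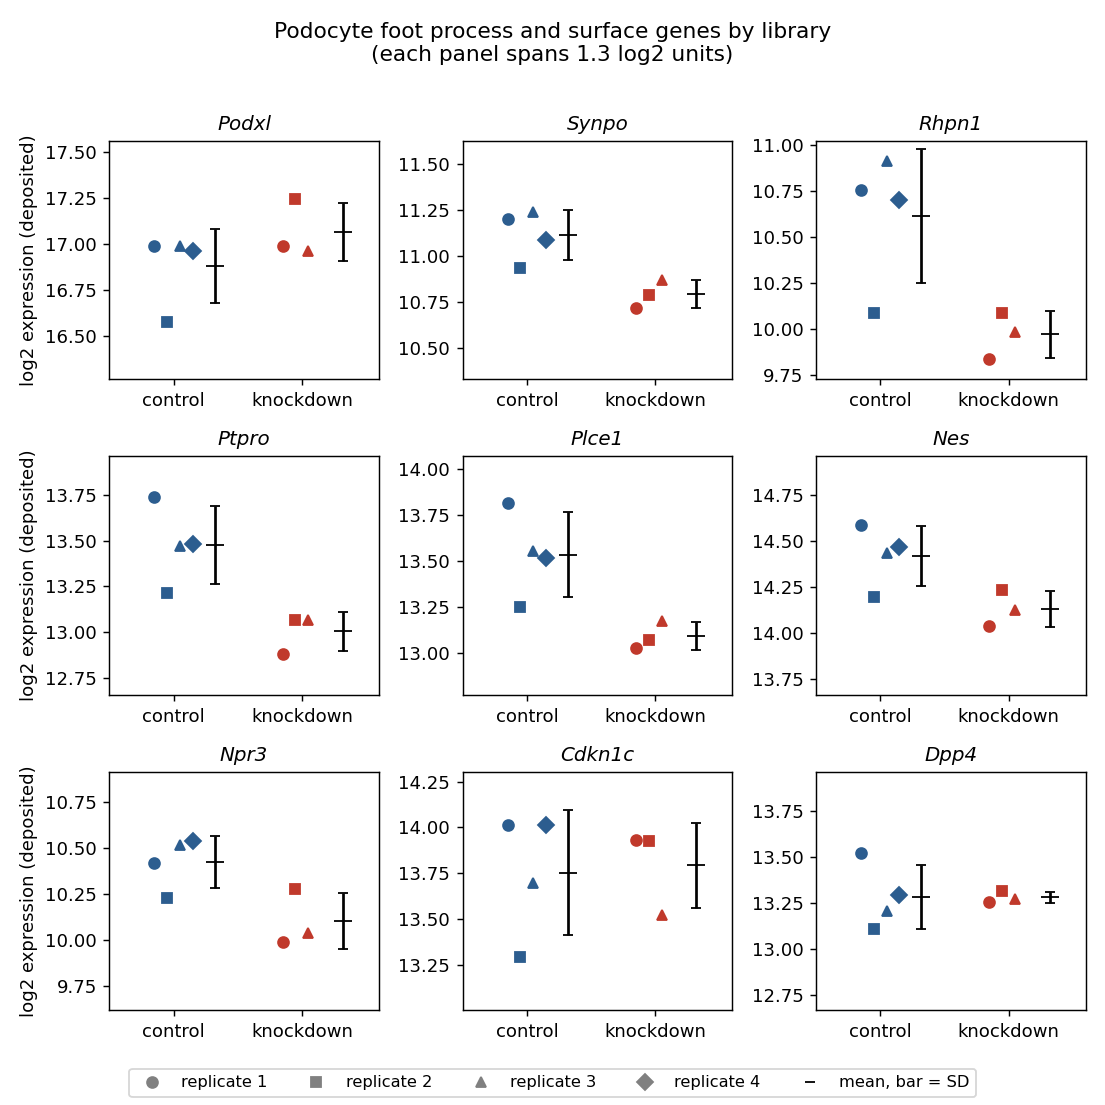
Deposited log2 expression of the 9 genes in 4 control (blue) and 3 knockdown (red) libraries, with group means and SD bars. Each panel spans the same log2 range. Knockdown points of Synpo, Ptpro and Plce1 lie below every control point, and control replicate 2 (square) is the lowest control in all 9 panels.

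Podxl was the most highly valued gene of the tables in every one of the 7 libraries, 0.19 to 0.79 above the next gene. Podxl (ENSMUSG00000025608.9; GRCm38 chromosome 6, 31519488 to 31563981, minus strand) stood at 16.99, 17.25 and 16.96 in the knockdown libraries. In the controls it stood at 16.99, 16.58, 16.99 and 16.96. The groups overlapped, and control replicate 2 alone was low. The mean was 17.06 ± 0.16 (SD, n = 3) in the knockdown group and 16.88 ± 0.20 (SD, n = 4) in the controls, a log2 difference of 0.19 (95% CI -0.15 to 0.52; limma, Benjamini-Hochberg adjusted p = 0.553). Values of Podxl were identical to 8 decimals in 3 of the 5 libraries titled G (knockdown replicate 1 and control replicates 1 and 3), which was so for 3 genes in all. They were also identical in both CB6 libraries, as for 36 genes. Its difference within the CB6 pair was 0, and so was its group difference after quantile normalization, in which the first rank takes 1 value in all libraries.

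Of 11 measured genes that bind podocalyxin, act beside it or resemble it, 1 was lower past the threshold and none higher. That gene was Gna12, a G protein alpha subunit, at 10.45 ± 0.05 (SD, n = 3) against 10.89 ± 0.11 (SD, n = 4). Its log2 difference was -0.44 (limma, Benjamini-Hochberg adjusted p = 0.0169). Gna12 did not pass without any 1 of the knockdown replicates or without control replicate 4. The median over the 11 genes was -0.07.

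Ptpro, also called GLEPP1, is a receptor tyrosine phosphatase of the apical podocyte membrane. Ptpro (ENSMUSG00000030223.14; chromosome 6, 137252319 to 137463233, plus strand) stood at 12.88, 13.07 and 13.07 in the knockdown libraries. The control values were 13.74, 13.21, 13.47 and 13.48. Every knockdown library was lower than every control library, with a gap of 0.15 between the closest ones. The mean was 13.01 ± 0.11 (SD, n = 3) in the knockdown group and 13.48 ± 0.21 (SD, n = 4) in the controls. The log2 difference of -0.47 (SE 0.11, 95% CI -0.73 to -0.21) corresponds to 0.72 times the control level, and Ptpro had the lowest adjusted p of the 9 (limma, Benjamini-Hochberg adjusted p = 0.0696). The exact permutation p was 0.0571 (two-sided, as below), where 3 against 4 libraries allow no value under 0.0286. The difference was -0.50 within the libraries titled G and -0.42 within the CB6 pair. Of 15 other receptor phosphatases none passed (median 0.05). Ptprb, the phosphatase of the endothelial side, differed by -0.13 and Ptprd by 0.07.

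Promoter sequences from RefSeq (GRCm38.p6) were held for 5 of the 9 genes. Those of Ptpro and Dpp4 are shown, to set beside each other a gene whose groups did not overlap, Ptpro, and a gene with equal group means, Dpp4. Each run is the 250 bases before the transcript start, read 5′ to 3′ on the strand of the gene, and neither overlaps an annotated exon, although the Dpp4 window lies within the span of the antisense gene Gm13561. The Ptpro window is chr6:137252049-137252298 on the plus strand and the Dpp4 window chr2:62412232-62412481 on the minus strand. The Ptpro gene start given above, 137252319, is from GENCODE and lies downstream of the RefSeq start. A run of bases just after that RefSeq start was not found in a GENCODE transcript of Ptpro. Capitals mark letters GTGGGAG or the reverse complement CTCCCAC, the core of a site of the podocyte transcription factor Wt1.
Ptpro: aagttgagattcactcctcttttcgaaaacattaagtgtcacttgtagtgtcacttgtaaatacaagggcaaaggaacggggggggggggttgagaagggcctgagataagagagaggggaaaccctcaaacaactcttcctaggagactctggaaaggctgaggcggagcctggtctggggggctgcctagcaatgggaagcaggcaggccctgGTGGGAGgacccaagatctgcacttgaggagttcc
Dpp4: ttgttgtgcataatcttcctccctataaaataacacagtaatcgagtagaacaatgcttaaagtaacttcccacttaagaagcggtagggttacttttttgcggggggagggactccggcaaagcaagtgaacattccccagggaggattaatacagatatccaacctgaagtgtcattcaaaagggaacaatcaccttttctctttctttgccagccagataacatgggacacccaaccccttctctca
The Ptpro window held 1 match, which starts 35 bases before the RefSeq transcript start, and the Dpp4 window held none. The windows of Plce1, Nes and Npr3, which also had lower means in the knockdown libraries, held none either, so that 1 of the 5 had a match. These 3 windows overlap annotated exons. All 250 bases of the Plce1 window are exon of Plce1 itself, inside the gene span given below. The Nes window holds 15 exon bases of Nes and the Npr3 window 93 of Gm5144, a gene on the other strand. Over all 32851 promoters of this length, 8.25% held at least 1 match. With 1 promoter for each of 9985 measured genes, the share was 9.11%. Neither window held TAATTA, letters that Lmx1b binds, found in 4.84% of all promoters and 2.47% of those of measured genes. The letters CATCTG or CAGATG, an E-box of the kind Tcf21 binds, were in neither window. They were in 14.4% of all promoters and 9.87% of those of measured genes. The searches covered both strands, and a match in letters does not show that a factor binds.

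Plce1 encodes phospholipase C epsilon, which produces the second messengers inositol trisphosphate and diacylglycerol and also activates Ras-like GTPases. Plce1 (ENSMUSG00000024998.17; chromosome 19, 38481109 to 38785030, plus strand) stood at 13.03, 13.07 and 13.18 in the knockdown libraries. Control libraries gave 13.82, 13.25, 13.56 and 13.52. The groups did not overlap, and the closest libraries were 0.08 apart. The mean was 13.09 ± 0.08 (SD, n = 3) in the knockdown group and 13.54 ± 0.23 (SD, n = 4) in the controls. The log2 difference was -0.44 (SE 0.12, 95% CI -0.72 to -0.17), or 0.73 times control (limma, Benjamini-Hochberg adjusted p = 0.0884). By exact permutation p was 0.0571. It was -0.49 within the libraries titled G and -0.34 within the CB6 pair.

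Rhpn1 had the lowest value relative to control among the 9. Rhophilin 1 is a scaffold that binds the small GTPase RhoA, and its absence in mice leads to podocyte actin changes. Rhpn1 (ENSMUSG00000022580.13; chromosome 15, 75704280 to 75715485, plus strand) stood at 9.84, 10.09 and 9.99 in the knockdown libraries. In the controls it stood at 10.76, 10.09, 10.91 and 10.70. Control replicate 2 lay within the knockdown range, just below the highest knockdown library, while the other three controls were far above it. The mean was 9.97 ± 0.13 (SD, n = 3) in the knockdown group and 10.62 ± 0.36 (SD, n = 4) in the controls. The log2 difference was -0.64 (SE 0.18, 95% CI -1.05 to -0.24), or 0.64 times the control level (limma, Benjamini-Hochberg adjusted p = 0.0969). By exact permutation p was 0.0857. Without control replicate 2, the lowest control, the difference could only become more negative. It was then -0.82 (limma, Benjamini-Hochberg adjusted p = 0.00486). Within the libraries titled G the difference was -0.62, and within the CB6 pair -0.72.

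Of 29 signalling genes that work with Rhpn1 or Plce1, none passed the threshold in either direction, and their median difference was -0.02. At an unadjusted p of 0.05, 5 were lower and 1 higher (limma). Itpr1, an inositol trisphosphate receptor and the most highly valued of them, differed by -0.18 (limma, Benjamini-Hochberg adjusted p = 0.243), and Iqgap1, an actin scaffold, by 0.02.

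Synaptopodin, the actin-bundling protein for which Synpo is named, stabilises RhoA and is a classic marker of the differentiated foot process. Synpo (ENSMUSG00000043079.17; chromosome 18, 60593973 to 60660142, minus strand) stood at 10.72, 10.79 and 10.87 in the knockdown libraries. The 4 controls had 11.20, 10.94, 11.24 and 11.09. The groups did not overlap, with 0.06 between knockdown replicate 3 and control replicate 2. The mean was 10.79 ± 0.08 (SD, n = 3) in the knockdown group and 11.12 ± 0.14 (SD, n = 4) in the controls. The log2 difference was -0.32 (SE 0.08, 95% CI -0.51 to -0.14), or 0.80 times the control level (limma, Benjamini-Hochberg adjusted p = 0.0748). By exact permutation p was 0.0571. It was -0.37 within the libraries titled G and -0.22 within the CB6 pair.

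Of 15 genes that bind, cut or resemble synaptopodin, 11 had a positive difference and 4 a negative one, with a median of 0.09. One passed, Enah, which promotes filament elongation, at 11.77 ± 0.04 (SD, n = 3) in the knockdown group and 11.55 ± 0.04 (SD, n = 4) in the controls. Its log2 difference was 0.22 (limma, Benjamini-Hochberg adjusted p = 0.0487). This call was lost with any single library left out and in 12 of 17 alternatives in all.

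Nestin is an intermediate filament protein of mature podocytes and of some vascular cells. Nes (ENSMUSG00000004891.16; chromosome 3, 87971078 to 87980451, plus strand) stood at 14.04, 14.23 and 14.13 in the knockdown libraries. The control values were 14.59, 14.19, 14.43 and 14.47. Control replicate 2 lay among the knockdown libraries and the other three controls above them. The log2 difference was -0.29 (SE 0.10, 95% CI -0.52 to -0.06; limma, Benjamini-Hochberg adjusted p = 0.171). By exact permutation p was 0.0857. It was -0.27 within the libraries titled G and -0.34 within the CB6 pair. Vim, the gene of vimentin, with which nestin assembles into filaments, stood at 12.25 ± 0.07 (SD, n = 3) against 12.68 ± 0.19 (SD, n = 4). Its groups did not overlap, but it missed the threshold (log2 difference -0.43; limma, Benjamini-Hochberg adjusted p = 0.0596). Des, which encodes desmin, differed by -0.16, and none of 9 intermediate filament genes passed.

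Npr3 encodes the receptor that removes natriuretic peptides from the circulation. Npr3 (ENSMUSG00000022206.7; chromosome 15, 11839896 to 11907287, minus strand) stood at 9.99, 10.28 and 10.04 in the knockdown libraries. Control libraries gave 10.42, 10.23, 10.52 and 10.54. Knockdown replicate 2 was higher than control replicate 2, and the groups overlapped by these libraries only. The log2 difference was -0.33 (SE 0.10, 95% CI -0.55 to -0.10; limma, Benjamini-Hochberg adjusted p = 0.122). By exact permutation p was 0.0857. It was -0.25 within the libraries titled G and -0.50 within the CB6 pair. None of 7 measured genes of the same peptide system passed. Furin, a protease that processes peptide precursors, differed by -0.15 and the cGMP-dependent kinase Prkg1 by -0.07.

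Cdkn1c encodes p57, the inhibitor of cyclin-dependent kinases that keeps podocytes out of the cell cycle, and is expressed from the maternal allele. Cdkn1c (ENSMUSG00000037664.13; chromosome 7, 143458339 to 143461050, minus strand) stood at 13.93, 13.93 and 13.53 in the knockdown libraries. In the controls it stood at 14.01, 13.29, 13.70 and 14.01. The groups overlapped widely, with an SD of 0.34 among controls, and the difference had a wide interval (log2 difference 0.04, 95% CI -0.38 to 0.46; limma, Benjamini-Hochberg adjusted p = 0.938). The 2 title styles had opposite signs, 0.26 within the libraries titled G and -0.49 within the CB6 pair, and this contrast was not tested. Of 10 measured genes of related inhibitors and of the same imprinted domain, Cdkn2d, the inhibitor p19, was higher past the threshold. It stood at 6.84 ± 0.18 (SD, n = 3) against 5.94 ± 0.30 (SD, n = 4), near the low end of the tables (log2 difference 0.90; limma, Benjamini-Hochberg adjusted p = 0.0345). Cdkn2d did not pass without any 1 of the knockdown replicates or without control replicate 1, 3 or 4.

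Dpp4, a serine peptidase of the cell surface that inactivates incretin hormones, is found on podocytes and also on the brush border of proximal tubule cells. Dpp4 (ENSMUSG00000035000.8; chromosome 2, 62330073 to 62412231, minus strand) stood at 13.26, 13.31 and 13.27 in the knockdown libraries. The 4 controls had 13.52, 13.11, 13.21 and 13.29. The knockdown libraries lay inside the control range. The log2 difference was -0.0014 (95% CI -0.21 to 0.21; limma, Benjamini-Hochberg adjusted p = 0.996). The interval leaves out a difference as low as that of Ptpro or Nes. Among 16 related or co-located peptidases and Dpp4 partners, 3 were lower past the threshold. These were Ace (-0.59), the angiotensin-converting enzyme, Anpep (-0.56), aminopeptidase N, and Cav1 (-0.43), the caveolar protein (limma, Benjamini-Hochberg adjusted p = 0.0127, 0.0338 and 0.0394). Ace passed with any single library left out, but not in the libraries titled G alone (limma, Benjamini-Hochberg adjusted p = 0.142) or after centring on other podocyte genes. Anpep and Cav1 did not pass without any 1 of the knockdown replicates or without control replicate 4, and Anpep also not without control replicate 3.

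**Figure D2:**
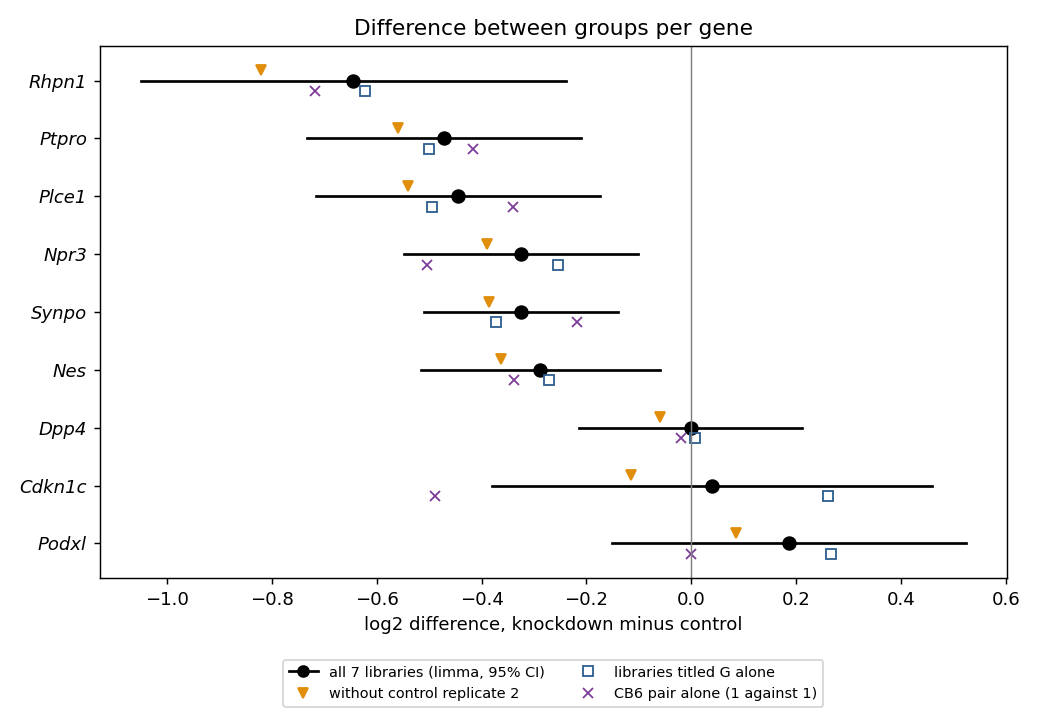
Log2 difference, knockdown minus control, of the 9 genes. Black points and bars give the limma estimate and its 95% confidence interval, triangles the estimate without control replicate 2, squares the libraries titled G alone and crosses the CB6 pair. For Rhpn1, Ptpro, Plce1, Npr3, Synpo and Nes all 4 symbols lie below 0, while for Cdkn1c they lie on both sides. Control replicate 2 was the lowest control of all 9 genes, so each triangle could only lie lower than its black point.

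Across all genes the deposited value was higher for longer genes, by 0.57 log2 units per doubling of exon length. Levels of different genes are given per kilobase of annotated exon, which subtracts more than that slope and so places longer genes lower. On that log2 level per kilobase Podxl was highest of the 9 at 14.50, the sixth highest of 12701 genes with a length. It was followed by Cdkn1c at 12.74, Nes at 11.61, Dpp4 at 10.62 and Ptpro at 10.53. Plce1 stood at 9.35, Rhpn1 at 8.23, Synpo at 7.73 and Npr3 at 7.06. These levels are means over both groups. Dpp4 and Ptpro were 0.10 apart, and the other neighbours in this order were at least 0.51 apart. In deposited values Ptpro minus Dpp4 was 0.20 ± 0.07 (SD, n = 4) in controls and -0.27 ± 0.09 (SD, n = 3) in knockdown libraries. The order of these 2 genes thus depended on the group. The length is the union of annotated exons, so the level of a gene with long unused exons is understated. The order depends on the length step. By mean deposited value Plce1, at 13.35, stood above Dpp4 at 13.28 and Ptpro at 13.27, and Synpo, at 10.98, above Rhpn1 at 10.34. Plce1 minus Dpp4 also changed sign with the group, with means of 0.25 in controls and -0.19 in knockdown libraries.

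The 9 genes shared a low library within the control group. Control replicate 2 had the lowest control value for 9 of 9 genes, and for 48 of 63 other podocyte genes, where it was lowest for 26.0% of all genes. Control replicate 1 had the highest control value for 5 of the 9, and for 29.8% of all genes. Among knockdown libraries, replicate 1 was lowest for 7 of the 9 and for 37.6% of all genes. With each gene centred on its mean over all libraries, the average of the 9 was 0.28, -0.18, 0.17 and 0.17 in control replicates 1 to 4. It was -0.21, -0.06 and -0.17 in knockdown replicates 1 to 3, and the groups overlapped, because control replicate 2 lay below knockdown replicates 2 and 3.

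A shift of all values of 1 library by the same amount cancels in the difference between 2 genes. Adjustment by rank or by gene before deposit would not cancel, and Podxl had identical values in several libraries. The 3 pairs described here were chosen after their values were seen, out of 36, and are given with no test. Ptpro exceeded Dpp4 by 0.22, 0.10, 0.27 and 0.19 in the controls, and stood at -0.37, -0.25 and -0.20 relative to it in the knockdown libraries. Podxl exceeded Rhpn1 by 6.08 to 6.49 in the controls and by 6.97 to 7.16 in the knockdown libraries. In both pairs the groups did not overlap, and their means differed by -0.47 and 0.83. Of all 36 pairs the groups did not overlap in 16 and overlapped in 20. The pairs reuse the same genes and are not independent, so this count partly restates the differences of single genes. The share over all pairs of measured genes was not computed, so whether 16 is unusual was not tested. Ptpro and Plce1 kept nearly the same distance in all libraries, from -0.14 to -0.0055, so that their difference between groups was -0.03.

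**Figure D3:**
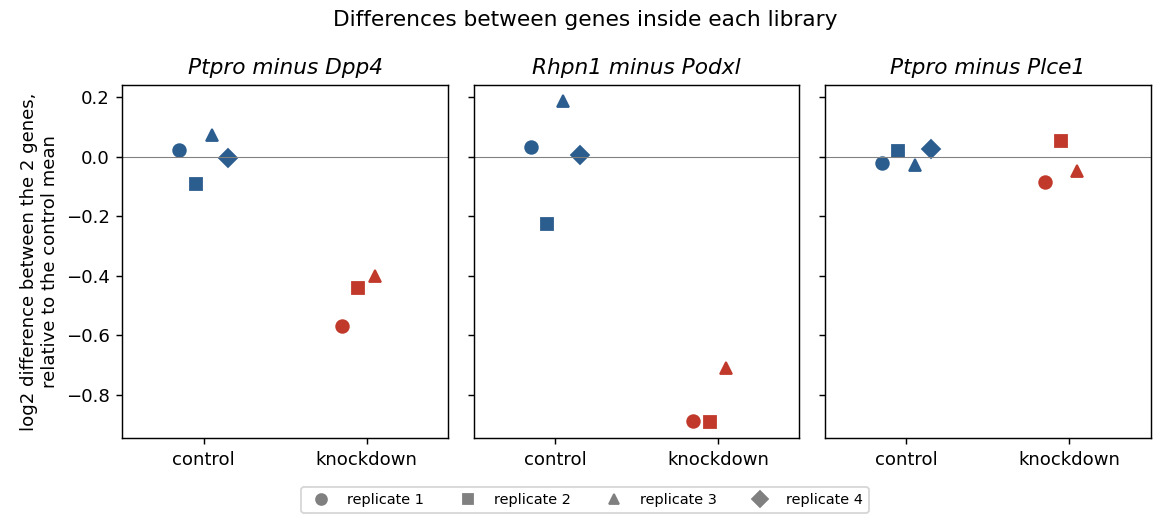
Log2 difference between 2 genes inside each library, drawn relative to the control mean of that difference, for Ptpro minus Dpp4, Rhpn1 minus Podxl and Ptpro minus Plce1. Blue points are control and red points knockdown libraries. The groups are separate in the first 2 panels, and in the third all libraries lie close to 0.

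Of 63 other measured podocyte genes, of the slit diaphragm, basement membrane, cytoskeleton and transcription, 49 had a negative and 14 a positive difference, where 5682 of all 12958 genes had a negative one. Past the threshold 7 were lower and none higher. Their median was -0.20. Clic3, a chloride intracellular channel protein, stood at 10.32 ± 0.11 (SD, n = 3) against 11.33 ± 0.22 (SD, n = 4), a log2 difference of -1.01 (limma, Benjamini-Hochberg adjusted p = 0.00442). Thsd7a, a foot process membrane protein, differed by -0.98, the slit diaphragm scaffold Magi2 by -0.70 and the endothelial growth factor Vegfa by -0.51 (limma, Benjamini-Hochberg adjusted p = 0.00934, 0.00872 and 0.0261). The count of 7 became 4 when title style entered the fit and 0 in the 5 libraries titled G. It was 3, 2 and 3 without knockdown replicates 1, 2 and 3, and 18 and 3 without control replicates 2 and 4. Over all genes 391 passed in the fit of all libraries, 203, 134 and 147 without those knockdown replicates, and 480 and 146 without those controls. Thsd7a did not pass without knockdown replicate 2, and Vegfa not without any 1 of the knockdown replicates or control replicate 4. After each library was centred on the mean of these 63 genes, the median over the 9 was -0.12, Rhpn1 differed by -0.44 and Ptpro by -0.27. Podxl then differed by 0.39, with none of the 9 past the threshold. This centring moved the median of all genes from 0.02 to 0.23.

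Markers of other glomerular and tubular cells differed between the groups as well, and their part in the differences of the 9 genes was not tested. Of 26 proximal tubule genes, 10 were lower and 1 higher past the threshold, with a median of -0.39. Their summed level ran from 18.45 to 18.81 on the log2 scale in knockdown and from 18.70 to 19.08 in control libraries. Cyp2e1, Slc22a12 and Cyp4b1, of drug and urate handling, differed by -3.26, -2.26 and -1.06, and the gluconeogenic Pck1 by 1.49. The count of 10 was 6 without knockdown replicate 2 and 2 in the libraries titled G alone. The centred mean of these genes was 0.38 in control replicate 2, where that of the other podocyte genes was -0.12. It was higher still in control replicate 4, at 0.41, where the other podocyte genes stood at 0.09. Of 23 glomerular endothelial genes none passed (median -0.22), with a summed level of 16.80 to 17.11 in knockdown and 16.91 to 17.43 in control libraries. Plat and Ehd3 differed by -0.09 and -0.23.

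Of 14 mesangial genes 3 were lower: Nt5e (-0.60), Sfrp2 (-0.98) and Serpine2 (-0.39), a nucleotidase, a Wnt modulator and a protease inhibitor. Nt5e passed with any single library left out but not in the libraries titled G alone (limma, Benjamini-Hochberg adjusted p = 0.0999), while Sfrp2 and Serpine2 did not pass without any 1 of the knockdown replicates or without control replicate 1, 3 or 4. The summed level of the mesangial genes ran from 14.58 to 14.78 in knockdown and from 14.71 to 15.16 in control libraries. Of 18 distal nephron genes 3 were higher: Slc4a1 (0.86), Atp6v1g3 (0.56) and Cldn8 (0.40), an anion exchanger, a proton pump subunit and a claudin. Slc4a1 did not pass without knockdown replicate 2 or 3 or control replicate 4, and the other two not without any 1 of the knockdown replicates or control replicate 1, 3 or 4. The summed level of the distal genes ran from 16.89 to 17.16 in knockdown and from 16.71 to 17.10 in control libraries. None of 9 parietal epithelial, 6 immune or 10 smooth muscle and renin cell genes passed, with medians of -0.13, 0.02 and 0.10. Pax8 and Cd24a differed by 0.12 and -0.16, Ptprc and Csf1r by -0.26 and 0.0034, and Mylk and Myh11 by -0.48 and 0.30. Of 2 measured red cell genes Alas2 was lower (-0.54), but not without any 1 of the knockdown replicates or without control replicate 1, 2 or 4.

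**Figure D4:**
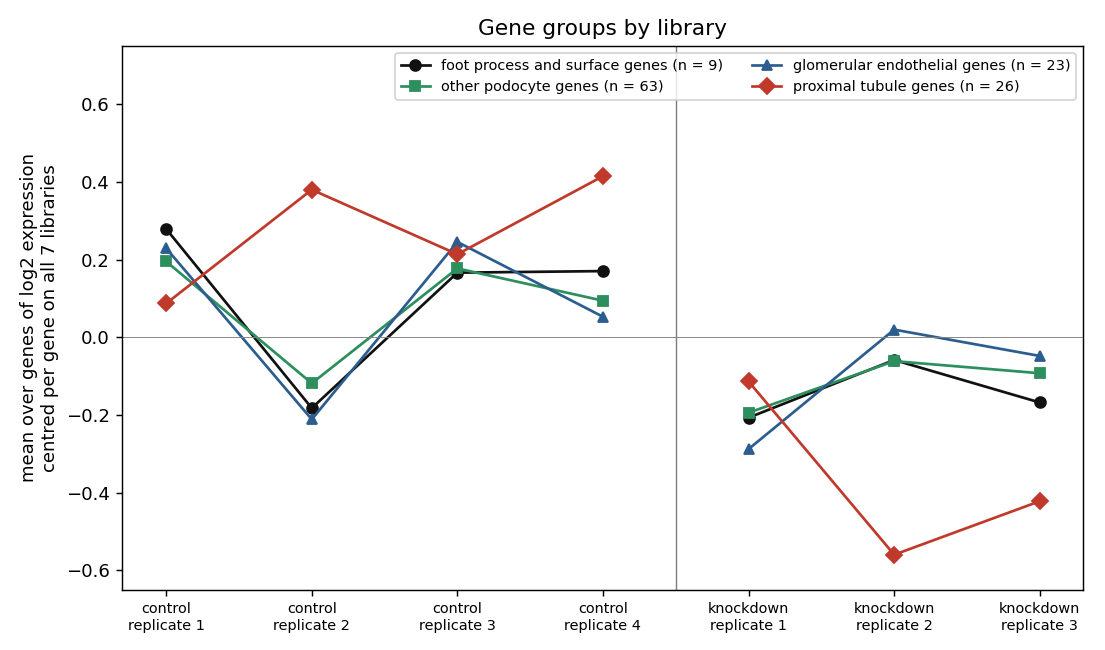
Mean over the genes of a group of the log2 value, centred per gene on all 7 libraries, by library. Lines join libraries of 1 group for legibility only, since replicates have no order. The average of the 9 genes is -0.18 in control replicate 2, below knockdown replicates 2 and 3, and the proximal tubule genes are highest in control replicates 2 and 4.

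The genes whose pattern over the 7 libraries was most like the mean of the 9 were Ick, Aplp1, Vash1, Calm2, Erg, Dock4, Rab3b, Icam2, Itpripl2 and S100a6. Their Pearson r with that mean ran from 0.996 for Ick to 0.979 for S100a6 over 7 libraries, which share the group difference and the low control replicate 2. Rab3b was in the list of other podocyte genes. Erg and Icam2 are endothelial genes, and the log2 differences of the 10 ran from -0.30 for Rab3b to -0.14 for Calm2, none past the threshold. An r above 0.9 was reached by 252 of 12958 genes, or 1.94%, the 9 included, and by 14 of the 63 other podocyte genes. For the 9 themselves the mean contains the gene compared, which raises r. It was 0.98 for Nes and 0.95 for Rhpn1 but 0.61 for Dpp4, 0.55 for Cdkn1c and 0.25 for Podxl.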

How the data were processed

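RNA of magnetically isolated glomeruli was sequenced after poly-A selection with ribosomal RNA depletion, per the labels' protocols. Reads were aligned with BWA to mm10, per the submitters' processing notes. Its version and the counting, strand, normalization and filters were not stated in any source. The authors deposited 1 table per library of log2 expression values for 12958 symbols. The log base is read as 2 from the range of values, from 2.32 to 17.25, and is not stated.

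The values bear marks of earlier adjustment. In the libraries titled G, 108 genes (none of the 9) differ only by fixed offsets. The 2 CB6 libraries deviated from their group means in opposite ways (r = -0.958 over genes, which are no replicates). If values were adjusted for title style before deposit, the p-values of the group fit, with 5 residual degrees of freedom, are too small.

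Groups were compared with limma 3.58.1 (R 4.3.3, intensity trend) on all 12958 genes, with Benjamini-Hochberg adjustment. Genes had to exceed the lowest table value in 3 or more libraries, which removed 0 genes. The fit was also run on simulated data with independent errors for each gene and library. That simulation held no adjustment by title style, so it cannot show that the p-values hold for these data. Exact permutation tests used all 35 splits. GENCODE M21 (GRCm38, the same assembly as mm10) matched 12701 symbols. Coordinates are 1-based. Exons of Npr3, Cdkn1c and Dpp4 overlap antisense or divergent transcripts, whose reads cannot be told apart without strand.

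The genes named are the 9 members, Shroom3, up to 4 genes past the threshold with the smallest p in each of 17 lists (or the 2 with the highest mean), and the 10 genes most like the mean of the 9. Nphs1 and Wt1 were named outside these rules, as podocyte markers picked by hand. The members and lists were chosen with earlier results of these data known. The alternatives were 2 scalings, 3 choices of genes, no trend, title style as a covariate, the libraries titled G alone, each library left out, a pseudocount of 32 and a threshold of 0.1. Centring on other podocyte genes was added after seeing the data.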

Additional observations from a re-analysis of the deposited data

Results flagged for a closer look

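Podxl in control replicate 2, at 16.58, stood apart from the other three controls, of which the nearest was at 16.96. Control replicates 1 and 3 held identical Podxl values, and the rule makes no allowance for ties. Iqgap1 in control replicate 3, at 13.43, stood above the other three controls, of which the next was at 13.24. Over the 47 genes examined for a control far from the others, 2 were found, where chance gives about 1 in 20.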

How the results depend on the processing

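None of the 9 genes passed an adjusted p of 0.05 in the fit of all libraries (limma), and the count ran from 0 to 4 with each library left out, being 4 only without control replicate 2. At a threshold of 0.1 the count was 4. The median difference over the 9 was -0.32 and moved to -0.12 when libraries were centred on other podocyte genes, which takes out the lower mean of those genes. Rhpn1, Ptpro, Plce1, Synpo, Npr3 and Nes kept a negative sign in all 17 alternatives. Cdkn1c kept its sign in 14 and Dpp4 in 10. These counts include alternatives that changed only the choice of genes or the intensity trend. The difference of a gene cannot move there, so its sign was fixed in advance. Without control replicate 2, the lowest control for all 9, a negative sign could not change either. With title style as a covariate the adjusted p of Ptpro was 0.133, and in the libraries titled G alone 0.367 (limma, Benjamini-Hochberg). Over all genes 391 passed, 480 without control replicate 2, 191 with title style and 40 within the G libraries. Without counts, the depth that limits the values of the lower genes is unknown. Replicate numbers were given in accession order and pair no samples.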
